A study of Homo sapiens with 8 samples.

Results

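The Notch genes described here are 10 named members of the signaling pathway, taken by symbol from a count table of 58302 genes: the receptors NOTCH1, NOTCH2 and NOTCH3, the ligands JAG1 and JAG2, the transcriptional repressors HES1, HES4, HES6 and HEY1, and the feedback inhibitor NRARP. The counts come from RNA sequencing of DLD1, a human colorectal cancer cell line. OE-WT cells stably carried wild-type TRMT6 and TRMT61A, the subunits of a tRNA m1A methyltransferase, delivered by lentivirus, and CTRL cells were transduced with the empty vector, so that both groups had been through transduction. The design text describes duplicate cultures, and the labels give 2 libraries for each group, each sequenced on 2 lanes and held in 1 column of the table. The study's methods name catalytically inactive mutants of the enzyme, which were not analysed here, so that an effect of the enzyme's activity and one of carrying the 2 proteins cannot be told apart in these libraries.

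Notch receptors are read out by cell contact. A ligand of the Jagged or Delta-like family on one cell engages a receptor on its neighbour, the receptor is cut by an ADAM protease and then by gamma-secretase, and the released intracellular domain enters the nucleus, where it joins the DNA-binding protein RBPJ and a Mastermind coactivator to switch on HES and HEY repressors and NRARP. In the intestinal epithelium the pathway is known for keeping crypt progenitors dividing and for holding back secretory cell fates.

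Because RBPJ acts through the DNA near its targets, the 250 bases before the RefSeq transcription start of 3 target genes and of the receptor with the largest change are shown first, on GRCh38.p14. Capitals mark the RBPJ core TGGGAA on either strand. The HES1 sequence lies at chr3:194135898-194136147 on the plus strand, HES4 at chr1:1000098-1000347, NRARP at chr9:137302272-137302521 and NOTCH3 at chr19:15200996-15201245, these 3 on the minus strand and written 5′ to 3′ in the direction of transcription.
HES1: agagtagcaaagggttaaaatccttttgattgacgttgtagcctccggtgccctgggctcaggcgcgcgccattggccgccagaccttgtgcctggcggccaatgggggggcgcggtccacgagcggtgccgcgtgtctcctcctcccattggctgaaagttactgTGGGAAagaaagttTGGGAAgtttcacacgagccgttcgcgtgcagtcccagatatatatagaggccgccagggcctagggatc
HES4: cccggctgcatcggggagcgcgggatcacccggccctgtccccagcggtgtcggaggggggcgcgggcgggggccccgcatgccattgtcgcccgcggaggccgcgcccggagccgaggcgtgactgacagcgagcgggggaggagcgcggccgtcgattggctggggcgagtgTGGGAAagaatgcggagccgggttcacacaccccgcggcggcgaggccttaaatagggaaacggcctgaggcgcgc
NRARP: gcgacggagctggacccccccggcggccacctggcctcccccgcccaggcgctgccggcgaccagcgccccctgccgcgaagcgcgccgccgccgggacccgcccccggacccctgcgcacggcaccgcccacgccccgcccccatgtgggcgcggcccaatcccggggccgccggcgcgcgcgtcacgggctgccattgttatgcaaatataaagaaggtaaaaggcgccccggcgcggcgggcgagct
NOTCH3: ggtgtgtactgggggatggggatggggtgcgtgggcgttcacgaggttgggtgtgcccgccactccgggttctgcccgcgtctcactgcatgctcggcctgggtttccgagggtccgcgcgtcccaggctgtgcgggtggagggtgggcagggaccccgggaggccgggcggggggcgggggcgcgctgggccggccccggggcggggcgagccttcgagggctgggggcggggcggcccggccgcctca
HES1 held 2 RBPJ cores, starting 84 and 70 bases before the start site, and HES4 held 1, starting 76 bases before it. The NRARP and NOTCH3 windows held none, nor did those of NOTCH1, NOTCH2, JAG1, JAG2 and HES6. Of 35116 RefSeq promoter windows cut to the same length, 20.85% held at least 1 core and 2.896% held 2 or more. The N box CACNAG, the sequence class bound by HES proteins, was found 3 times before HES1 and once before NOTCH3, against 32.04% of all windows with at least 1. The E box CACGTG, the class bound by many other basic helix-loop-helix proteins, was in 6.345% of all windows and in no window searched here. These matches describe letters in a window, not binding.

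The genotype labels were first checked on the enzyme. TRMT6, the non-catalytic subunit, stood at 2092 and 1841 counts with the construct against 677 and 683 with the vector (log2 fold change 1.86; edgeR's quasi-likelihood test, Benjamini-Hochberg adjusted p = 8.5e-13). TRMT61A, the catalytic subunit, stood at 1365 and 1327 against 758 and 700 counts (log2 fold change 1.21; edgeR, adjusted p = 1.9e-10). Both transcripts rose together in each OE-WT library. The libraries held 10327498 to 12379671 counts, and 3 counts, taken as the limit of detection, correspond to 0.233 to 0.302 CPM, the count relative to the library total after TMM scaling. Log2 CPM correlated across genes at 0.993 within OE-WT, 0.995 within CTRL and 0.982 to 0.987 between groups. Of 10 markers of colon epithelium, 6 exceeded 100 counts in every library, while CDX1 had 0, 1, 0 and 0 counts in OE-WT 1, OE-WT 2, CTRL 1 and CTRL 2. Of the 8 epithelial markers tested, 2 rose, 3 fell and 3 were not called, beside 9.44% higher and 11.6% lower of all genes tested. The keratins KRT8 and KRT18 rose (log2 fold change 0.25 and 0.29, edgeR adjusted p = 0.0173 and 0.00512), while KRT20, a keratin of differentiated colonocytes, and the cadherins CDH17 and CDH1 fell (-1.52, -0.45 and -0.29; edgeR, adjusted p = 7.0e-08, 5.4e-05 and 0.0032). The markers summed to 11577 and 11872 CPM in OE-WT against 10481 and 10251 in CTRL, a sum made up mostly of KRT8 and KRT18. Leukocyte, fibroblast and endothelial markers summed to 0.590 to 2.41 CPM per list and library, with CD3E, COL1A2, COL3A1, PDGFRA and CDH5 at 0 counts in all 4. In bulk RNA, fewer cells that express a gene and less RNA of it per cell cannot be told apart.

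Of the 10 Notch genes, 9 passed the filter on low counts and were tested, and HEY1 did not. In OE-WT cells NOTCH2, NOTCH3, JAG1 and HES4 fell, NRARP rose, and NOTCH1, JAG2, HES1 and HES6 did not pass an adjusted p of 0.05. Across all 14133 genes tested, 21.1% passed, 11.6% as lower and 9.44% as higher, so that 5 of 9 members, 4 lower and 1 higher, are to be read against these shares. The median log2 fold change was -0.29 over the 9 members and 0.01 over all genes tested. With the trend in transcript GC content described below removed, the median of the members was -0.17 and 3 were called lower. The groups did not overlap for 7 of the 9, beside 60.2% of all genes tested. At the study's own thresholds, an unadjusted p below 0.05 with an absolute log2 fold change above 1, which 3.15% of all genes met, NOTCH3 was the 1 member called. With library size as the sole scaling, the median of all genes moved from 0.01 to -0.08 and the called genes went from 1334 higher and 1642 lower, a share higher of 44.8%, to 733 and 2451, a share of 23.0%. The changes below are given on the TMM scale.

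**Figure D1:**
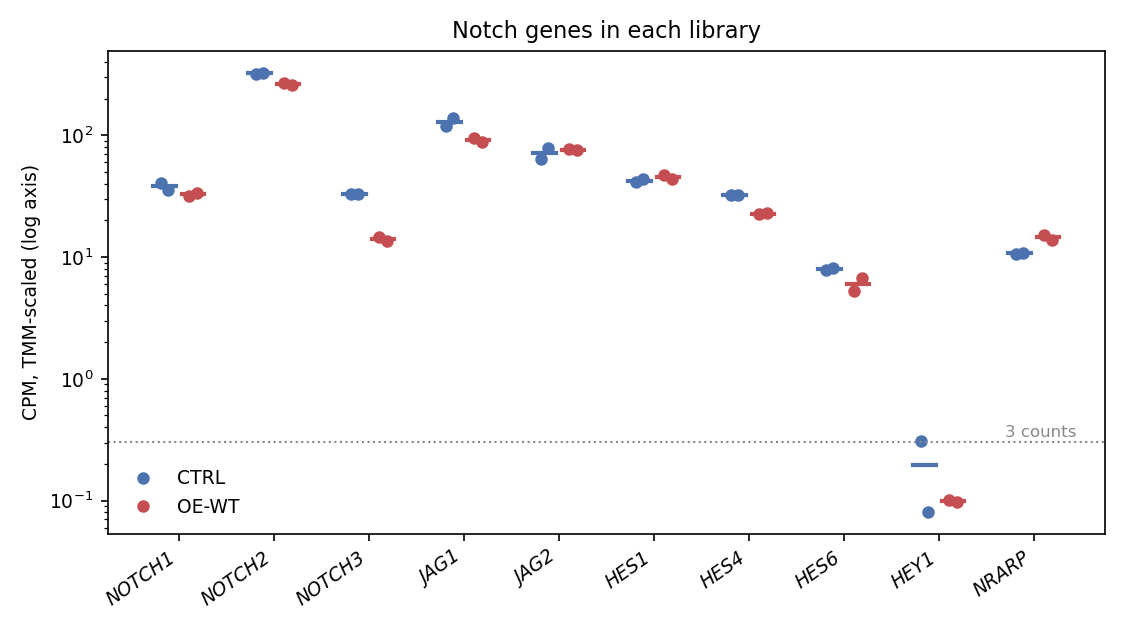
Levels of the 10 Notch genes in CPM (TMM-scaled, log axis), with 1 point for each of 2 CTRL and 2 OE-WT libraries, short lines at the group means, and a dotted line at the highest of the 4 detection limits (3 counts, 0.302 CPM). NOTCH3 shows the widest gap between groups, at 13.5 and 14.7 against 32.7 and 33.0 CPM, while JAG2 and HES1 overlap and HEY1 sits around the detection limit.

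Among the receptors, NOTCH3 changed most. NOTCH3 (ENSG00000074181, chr19:15159038-15200995, minus strand), a receptor best known from vascular smooth muscle and also expressed in carcinomas, had 146 and 137 counts in OE-WT against 425 and 403 in CTRL, or 14.7 and 13.5 against 33.0 and 32.7 CPM. Both OE-WT libraries lay below the CTRL libraries by far more than the libraries of a group differed. The means were 14.1 ± 0.880 and 32.9 ± 0.228 CPM (SD, n = 2 each), a fall to 42.8% of CTRL, with a log2 fold change of -1.22 (SE 0.11, 95% interval -1.45 to -0.99; edgeR, adjusted p = 9.7e-08). Of all genes tested, 1.20% had a lower log2 fold change. Under all 11 alternative settings the value stayed between -1.31 and -1.04 and the call held.

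NOTCH2 (ENSG00000134250, chr1:119911553-120100779, minus strand), the most abundant receptor in these cells, had 2668 and 2624 counts in OE-WT against 4087 and 4017 in CTRL. The OE-WT libraries, at 269 and 258 CPM, lay below the CTRL libraries at 318 and 326 CPM, without overlap. NOTCH2 fell to 81.8% of CTRL (263 ± 7.71 against 322 ± 5.93 CPM; log2 fold change -0.29, SE 0.06, edgeR adjusted p = 0.00239), a smaller shift than that of NOTCH3. NOTCH2 has near-identical partial copies on chromosome 1, and how the authors' counting split shared reads is uncertain. The copy NOTCH2NLA was listed at 1, 2, 0 and 1 counts, while the identifiers of NOTCH2NLB, NOTCH2NLR and NOTCH2NLC were not among those listed.

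NOTCH1 (ENSG00000148400, chr9:136494433-136546048, minus strand), the receptor most closely tied to intestinal progenitors together with NOTCH2, had 314 and 342 counts in OE-WT against 521 and 441 in CTRL. In CPM these were 31.6 and 33.6 against 40.5 and 35.8, with the OE-WT libraries lower and no overlap. The log2 fold change was -0.23 (SE 0.09, 95% interval -0.42 to -0.03, edgeR adjusted p = 0.0932). The interval is not adjusted for the number of genes, and the call was not made after adjustment. It was made with library size as the sole scaling (-0.32, edgeR adjusted p = 0.0174) and without CTRL 2 (-0.31, edgeR adjusted p = 0.0386). NOTCH4, the remaining receptor, had 7, 6, 9 and 4 counts in OE-WT 1, OE-WT 2, CTRL 1 and CTRL 2 and was not tested.

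The fall of NOTCH3 was larger than that of NOTCH2, and the make-up of the receptor transcripts moved with it. The ratio of NOTCH3 to NOTCH2 counts was 0.0547 and 0.0522 in OE-WT and 0.104 and 0.100 in CTRL, without overlap, whereas that of NOTCH1 to NOTCH2 was 0.118 and 0.130 against 0.127 and 0.110, with overlap. These ratios within a library do not depend on its scaling, but they do not cancel the trend with transcript GC content described below. Per length, as RPKM from merged exon lengths, NOTCH3 made up 7.73% and 7.31% of the summed receptor level in OE-WT and 13.6% and 13.5% in CTRL. NOTCH2 made up 79.4% and 78.7% against 73.6% and 75.4%. The summed receptor level was 20.2 and 19.6 RPKM in OE-WT and 25.8 in each CTRL library.

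Of the Jagged ligands, one fell and the other did not pass the test. JAG1 (ENSG00000101384, chr20:10637684-10673999, minus strand), which is itself a reported target of Wnt signaling in colorectal cancer, had 941 and 890 counts in OE-WT against 1540 and 1700 in CTRL. The OE-WT libraries, at 94.8 and 87.5 CPM, were both below the CTRL libraries at 120 and 138 CPM. JAG1 fell to 70.7% of CTRL (91.1 ± 5.18 against 129 ± 12.9 CPM; log2 fold change -0.50, SE 0.08, edgeR adjusted p = 7.4e-05), and the call held under all 11 alternatives (-0.60 to -0.39). An antisense RNA, ENSG00000270792, overlaps 306 exonic bases of JAG1; it had 16 to 35 counts per library, and since the strand setting of the counting is not given in the sources used here, reads of the pair may not be separated.

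JAG2 (ENSG00000184916, chr14:105140982-105168824, minus strand), the second Jagged ligand, had 762 and 767 counts in OE-WT against 823 and 967 in CTRL. In CPM these were 76.8 and 75.4 against 64.0 and 78.5, and CTRL 2 lay above both OE-WT libraries while CTRL 1 lay below them. The log2 fold change was 0.10 (SE 0.08, 95% interval -0.08 to 0.27; edgeR, adjusted p = 0.461). It turned to -0.05 without CTRL 1 and rose to 0.25 without CTRL 2, so its direction rests on which CTRL library is kept. A noncoding RNA on the same strand, ENSG00000257622, overlaps 469 exonic bases of JAG2 and had 0 counts in every library. How reads shared by the pair were counted is uncertain.

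The balance of the ligands differed between groups in every library. The ratio of JAG2 to JAG1 counts was 0.810 and 0.862 in OE-WT and 0.534 and 0.569 in CTRL. Per length on merged exons, JAG1 made up 43.5% and 41.0% of the summed ligand level in OE-WT and 50.9% and 50.2% in CTRL, and JAG2 51.3% and 51.4% against 39.5% and 41.5%. With merged exon lengths JAG2 stood above JAG1 in OE-WT (11.9 against 9.80 RPKM) and below it in CTRL (11.1 against 13.9 RPKM). With the length of the canonical transcript, an alternative added after the data were seen, JAG1 stood above JAG2 in both groups (15.3 against 13.2 RPKM in OE-WT), so the order in OE-WT depends on the length used and the ratio between groups does not.

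The Delta-like ligands were much scarcer. DLL4, the ligand best known from endothelium and also present in intestinal crypts, had 47 and 65 counts in OE-WT against 126 and 121 in CTRL. It fell (5.56 ± 1.17 against 9.81 ± 0.020 CPM; log2 fold change -0.82, SE 0.18, edgeR adjusted p = 0.00302), though the call was lost without OE-WT 1 (-0.62, edgeR adjusted p = 0.0551). Of the endothelial markers, VWF had 5 and 6 counts in OE-WT against 30 and 14 in CTRL and fell with it (-1.65, edgeR adjusted p = 0.018), PECAM1 had 3, 0, 0 and 0 and CDH5 0 in all 4 libraries. Their part in the fall of DLL4 was not tested. DLL1, a ligand of secretory progenitors, had 4 and 12 counts against 13 and 17 and a log2 fold change of -0.58 (SE 0.48, edgeR adjusted p = 0.431), which was -0.014 without OE-WT 1 and -1.55 without OE-WT 2. DLL3, which inhibits Notch within the same cell, had 3, 2, 3 and 1 counts and was not tested.

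The target genes went different ways. HES1 (ENSG00000114315, chr3:194136148-194138732, plus strand), the repressor most often used as the readout of Notch activity in the gut and the gene with 2 RBPJ cores in the sequence above, had 469 and 442 counts in OE-WT against 527 and 540 in CTRL. In CPM these were 47.2 and 43.4 against 41.0 and 43.8, and the groups overlapped. The log2 fold change was 0.10 (SE 0.08, 95% interval -0.08 to 0.27; edgeR, adjusted p = 0.457). Over the 11 alternatives it ranged from 0.005 to 0.15 and was never called. Within that interval a change of either sign remains possible at this depth, but a fall as large as that of HES4 lies outside it.

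HES4 (ENSG00000188290, chr1:998962-1000172, minus strand), a HES family gene without a mouse counterpart and with 1 RBPJ core in its window, had 224 and 233 counts in OE-WT against 412 and 398 in CTRL. The OE-WT libraries, at 22.6 and 22.9 CPM, were far below the CTRL libraries at 32.0 and 32.3 CPM. HES4 fell to 70.7% of CTRL (22.7 ± 0.235 against 32.2 ± 0.199 CPM; log2 fold change -0.50, SE 0.10, edgeR adjusted p = 9.1e-04). The transcript is 74.13% GC, and once a smooth GC trend was removed from each library the value was -0.22 (edgeR, adjusted p = 0.115), which ended the call.

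HES6 (ENSG00000144485, chr2:238238267-238240662, minus strand), which opposes HES1 and favours differentiation in other tissues, was scarce, with 52 and 69 counts in OE-WT against 101 in each CTRL library. At 5.24 and 6.78 against 7.85 and 8.20 CPM the OE-WT libraries were lower without overlap. The log2 fold change was -0.41 (SE 0.19, 95% interval -0.80 to -0.02, edgeR adjusted p = 0.123). It passed with library size as the sole scaling (-0.50, edgeR adjusted p = 0.0465) and stood at -0.17 with the GC trend removed (edgeR, adjusted p = 0.56). HEY1 (ENSG00000164683, chromosome 8, minus strand), a repressor of the related Hairy/E(spl)-YRPW family, had 1 and 1 counts in OE-WT against 4 and 1 in CTRL. These values lie around the detection limit, and no fold was computed.

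NRARP (ENSG00000198435, chr9:137299631-137302271, minus strand), an ankyrin-repeat protein that Notch induces and that blocks the Notch nuclear complex, was the 1 member that rose. It had 151 and 140 counts in OE-WT against 137 and 134 in CTRL, or 15.2 and 13.8 against 10.6 and 10.9 CPM. Both OE-WT libraries were above both CTRL libraries. NRARP stood at 135% of CTRL (14.5 ± 1.03 against 10.8 ± 0.161 CPM; log2 fold change 0.43, SE 0.14, 95% interval 0.13 to 0.73, edgeR adjusted p = 0.0374). The direction held under all 11 alternatives (0.34 to 0.55), but the call was lost in 7 of them. With library size as the sole scaling the log2 fold change was 0.34 (edgeR, adjusted p = 0.0981). The adjusted p was 0.208 by DESeq2, 0.0553 in edgeR with the replicate number as a block and 0.0911 in edgeR with a filter of 1 count. The call was also lost without OE-WT 1 (0.36), CTRL 1 (0.41) or CTRL 2 (0.44).

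Ratios of target counts within a library do not depend on scaling between libraries. HES4 to HES1 counts stood at 0.478 and 0.527 in OE-WT and 0.782 and 0.737 in CTRL. NRARP to HES1 counts stood at 0.322 and 0.317 against 0.260 and 0.248. Neither ratio overlapped between groups. These ratios do not cancel the trend with GC content. With that trend removed, the log2 fold change was -0.22 for HES4, 0.10 for HES1 and 0.55 for NRARP. Per length, HES4 led the HES and HEY repressors in CTRL with 50.5% and 49.1% of their summed level, and HES1 led in OE-WT with 46.3% and 43.2%. With canonical transcript lengths HES4 also led in CTRL, at 36.3 RPKM against 26.9 for HES1.

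HES1, HES4 and NOTCH2 led the order of levels per length in both groups. In OE-WT, as RPKM from merged exons, HES1 stood at 22.0, HES4 at 20.3, NOTCH2 at 15.7, JAG2 at 11.9, JAG1 at 9.80 and NRARP at 5.48. HES6 at 3.08 and NOTCH1 at 2.60 did not differ beyond their spread, and NOTCH3 at 1.50 and HEY1 at 0.018 closed the order. In CTRL, HES4 stood at 28.8, HES1 at 20.6, NOTCH2 at 19.2, JAG1 at 13.9 and JAG2 at 11.1 RPKM. HES6 at 4.11 and NRARP at 4.08 did not differ beyond their spread, followed by NOTCH3 at 3.49, NOTCH1 at 3.04 and HEY1 at 0.036. With canonical lengths, NOTCH2 at 28.2 RPKM and HES1 at 26.9 did not differ beyond their spread in CTRL, nor did NRARP, NOTCH1 and NOTCH3 each from the next. HES6 then stood above NRARP in CTRL (5.87 against 4.08 RPKM) and above NOTCH1 in OE-WT (4.39 against 3.41 RPKM), both without overlap.

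The members differ in base composition, and the comparison as a whole carried a trend with it. The median log2 fold change was 0.15 in the decile of tested genes with the lowest transcript GC and -0.18 in the decile with the highest, from 61.77% to 85.54% GC, where 23.4% were called lower and 2.93% higher. NOTCH1, NOTCH3, JAG2, HES4 and HES6 lie in that decile. NRARP, at 59.22% GC, lies in the next, whose median was -0.12. NOTCH2 at 48.96% and JAG1 at 50.63% lie near the median of 49.72%, in deciles with medians of 0.04 and 0.01. With the trend removed, NOTCH3 stood at -1.04 (edgeR, adjusted p = 5.0e-07), JAG1 at -0.50, NOTCH2 at -0.31 and NRARP at 0.55 (edgeR, adjusted p = 0.00691), all called. JAG2 then stood at 0.29 and was called (edgeR, adjusted p = 0.0206), and NOTCH1 stood at -0.05 (edgeR, adjusted p = 0.773). Whether the trend arose in the cells or in library preparation was not tested.

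**Figure D2:**
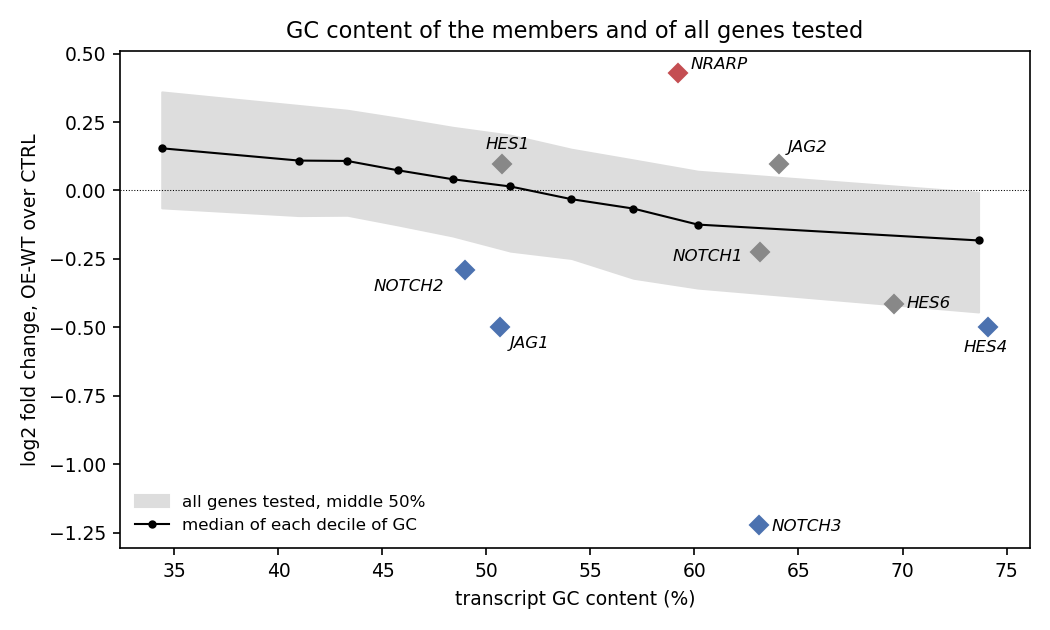
Log2 fold change, OE-WT over CTRL, against transcript GC content in percent for the 9 Notch genes tested (diamonds, blue for lower, red for higher, grey for not called), over the median (line) and middle 50% (band) of all tested genes in deciles of GC, drawn at the midpoint of each decile's range. The median falls from 0.15 to -0.18 with rising GC, NOTCH3, JAG1, NOTCH2 and HES4 lie below the middle 50% of their deciles and NRARP and JAG2 above it.

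**Figure D3:**
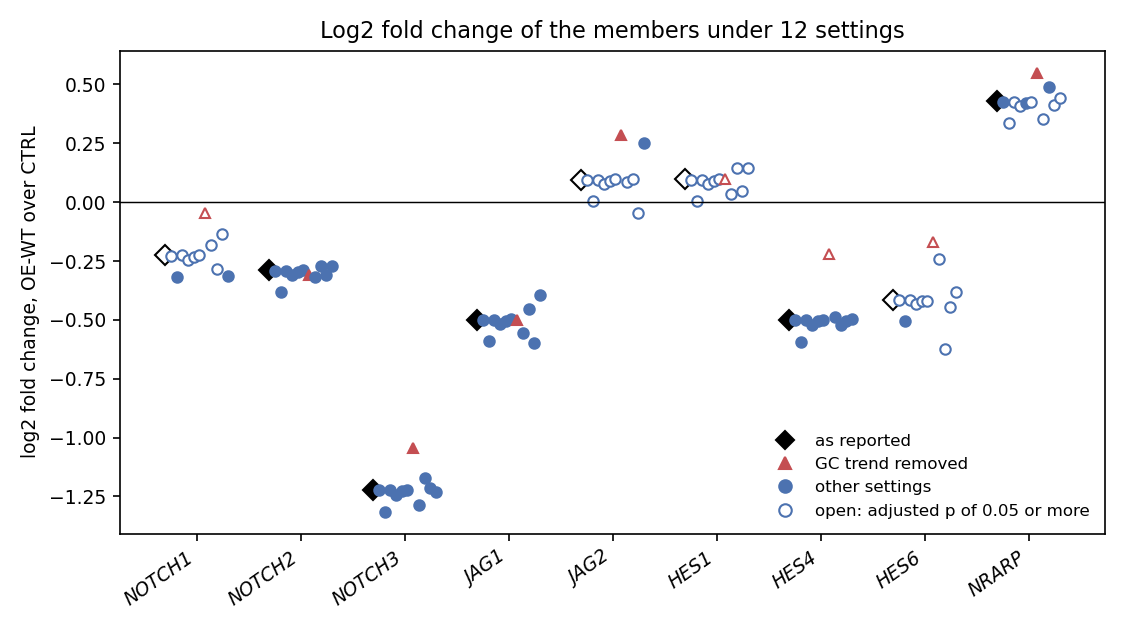
Log2 fold change of the 9 tested Notch genes under 12 settings: the value as reported (black diamond), the GC trend removed (red triangle) and the 10 other settings (blue circles), filled where the adjusted p was below 0.05 and open otherwise. NOTCH3, JAG1 and NOTCH2 are filled throughout, HES4 is open with the GC trend removed, and NRARP is open in 7 settings.

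The wider pathway was followed in a list of 78 genes in 11 roles, of which 59 were tested; 7 rose and 16 fell (background 9.44% and 11.6%). Without the 10 members, 50 of 68 were tested, 6 rose and 12 fell, with a median log2 fold change of -0.03 against 0.01 over all genes tested. The count of 23 called genes in the whole list ranged from 12 to 25 over the alternatives, with 13 by DESeq2, 14 without OE-WT 1 and 12 without CTRL 1.

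Of 9 genes of receptor cleavage, 5 fell and none rose, beside 11.6% lower and 9.44% higher of all genes tested. APH1B, a subunit of gamma-secretase, the protease that frees the intracellular domain, had 63 and 75 counts against 147 and 142 and fell (log2 fold change -0.74, SE 0.17, edgeR adjusted p = 0.00268). Also among those that fell, and named after their values were seen, were the gamma-secretase subunits PSEN2, at a log2 fold change of -0.47, the substrate receptor NCSTN at -0.26 and PSENEN at -0.31. These were smaller falls, and the call was lost in 7 of 11 alternatives for PSENEN, without OE-WT 1 (-0.21), CTRL 1 (-0.34) or CTRL 2 (-0.28) among them, and in 1 each for NCSTN, without CTRL 1 (-0.20), and for PSEN2, with DESeq2. APH1A, which had the highest level per length of the role (46.2 RPKM in OE-WT and 45.7 in CTRL), had a log2 fold change of 0.02 (edgeR, adjusted p = 0.9).

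Of 4 ubiquitin ligases that act on ligands, 3 were tested and 1 fell, beside 11.6% of all genes tested. MIB2, which ubiquitinates ligands for endocytosis, had 90 and 84 counts against 186 and 166 (log2 fold change -0.69, SE 0.15, edgeR adjusted p = 0.00241). NEURL1B stood at -0.38 (edgeR, adjusted p = 0.0646). Of 5 tested genes of receptor glycosylation, 2 fell and 1 rose (11.6% and 9.44% of all genes tested). POFUT1, which adds O-fucose to the receptors' EGF repeats, fell (-0.36, edgeR adjusted p = 0.00197). RFNG, a Fringe glycosyltransferase named after its value was seen, fell as well (-0.41, edgeR adjusted p = 0.0053). Its call was lost in 3 of 11 alternatives: by DESeq2 (adjusted p = 0.0589), without CTRL 1 (-0.32) and with the GC trend removed (-0.22). POGLUT1, which adds O-glucose, had 204 and 202 counts against 164 and 169 and rose (0.61, SE 0.13, edgeR adjusted p = 0.00142).

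In the nucleus, none of the 5 tested genes of the activating complex, RBPJ and its coactivators, passed the test, beside 21.1% of all genes tested. Their median was 0.08, and SNW1, the one with the highest level per length, stood at 0.26 (edgeR, adjusted p = 0.0644). Of 12 corepressors, 2 rose and 2 fell, beside 9.44% and 11.6% of all genes tested. TLE2, a Groucho-type corepressor, had 11 and 16 counts against 42 and 32 and fell (-1.12, edgeR adjusted p = 0.0166), a call lost without OE-WT 1 or CTRL 1 (-0.90 and -0.95; edgeR, adjusted p = 0.142 and 0.138). SPEN, which bridges RBPJ to repressors, rose (0.54, edgeR adjusted p = 0.00921), as did KDM5A, a histone demethylase (0.58, edgeR adjusted p = 0.0286). The call was lost for SPEN under 3 of 11 alternatives, among them leaving out OE-WT 1 or CTRL 1 (0.42 each), and for KDM5A under 6, among them leaving out OE-WT 2 (0.49) or CTRL 1 (0.44). HDAC1 stood at 0.06 (edgeR, adjusted p = 0.602).

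Of the 10 HES and HEY genes, 5 were tested, 2 fell and none rose, beside 11.6% lower and 9.44% higher of all genes tested. HES2 had 13 and 18 counts in OE-WT against 37 and 38 in CTRL and fell (-0.94, SE 0.31, edgeR adjusted p = 0.032), a call lost without OE-WT 1 (-0.75), CTRL 1 (-0.995) or CTRL 2 (-0.89) and with the GC trend removed (-0.81), where edgeR's adjusted p was 0.219, 0.0802, 0.11 and 0.0639. HES7, known from the somite clock, had 62 and 63 against 80 and 86 counts (-0.08, edgeR adjusted p = 0.796). HEYL had 5 and 4 against 13 and 10 counts, HEY2 had 0, 1, 1 and 1, and HES3 and HES5 had 0 in all 4 libraries, so none of these 4 was tested.

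Among 9 tested genes of receptor turnover and feedback, NRARP and CDK8 rose and none fell, beside 9.44% higher and 11.6% lower of all genes tested. CDK8, a kinase that marks the intracellular domain for degradation and named after its value was seen, had 134 and 107 against 98 and 117 counts (0.49, SE 0.17, edgeR adjusted p = 0.0455), and the call was lost in 7 of 11 alternatives, among them leaving out OE-WT 1 (0.30) or CTRL 1 (0.34). DTX2, an E3 ligase of the Deltex family, stood at -0.15 (edgeR, adjusted p = 0.229). Of the 4 other reported targets in the list, 3 were tested and 2 rose (9.44% of all genes tested). CCND1, a cell cycle gene and reported Notch target that also answers to other pathways, had 4370 and 4159 against 4385 and 4630 counts and rose (0.24, SE 0.07, edgeR adjusted p = 0.0135), a call lost with library size as the sole scaling and without OE-WT 1 (0.19) or CTRL 1 (0.18). SOX9, a progenitor transcription factor named after its value was seen, also rose (0.26, edgeR adjusted p = 0.0054), and was not called with library size as the sole scaling (0.17). MYC stood at 0.03 (edgeR, adjusted p = 0.838). Of 6 genes of the secretory lineage that HES1 represses, GFI1 was the 1 tested, with 14 and 12 against 14 and 9 counts (0.50, edgeR adjusted p = 0.436), and ATOH1, the secretory master regulator, had 0 counts in all 4 libraries.

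**Figure D4:**
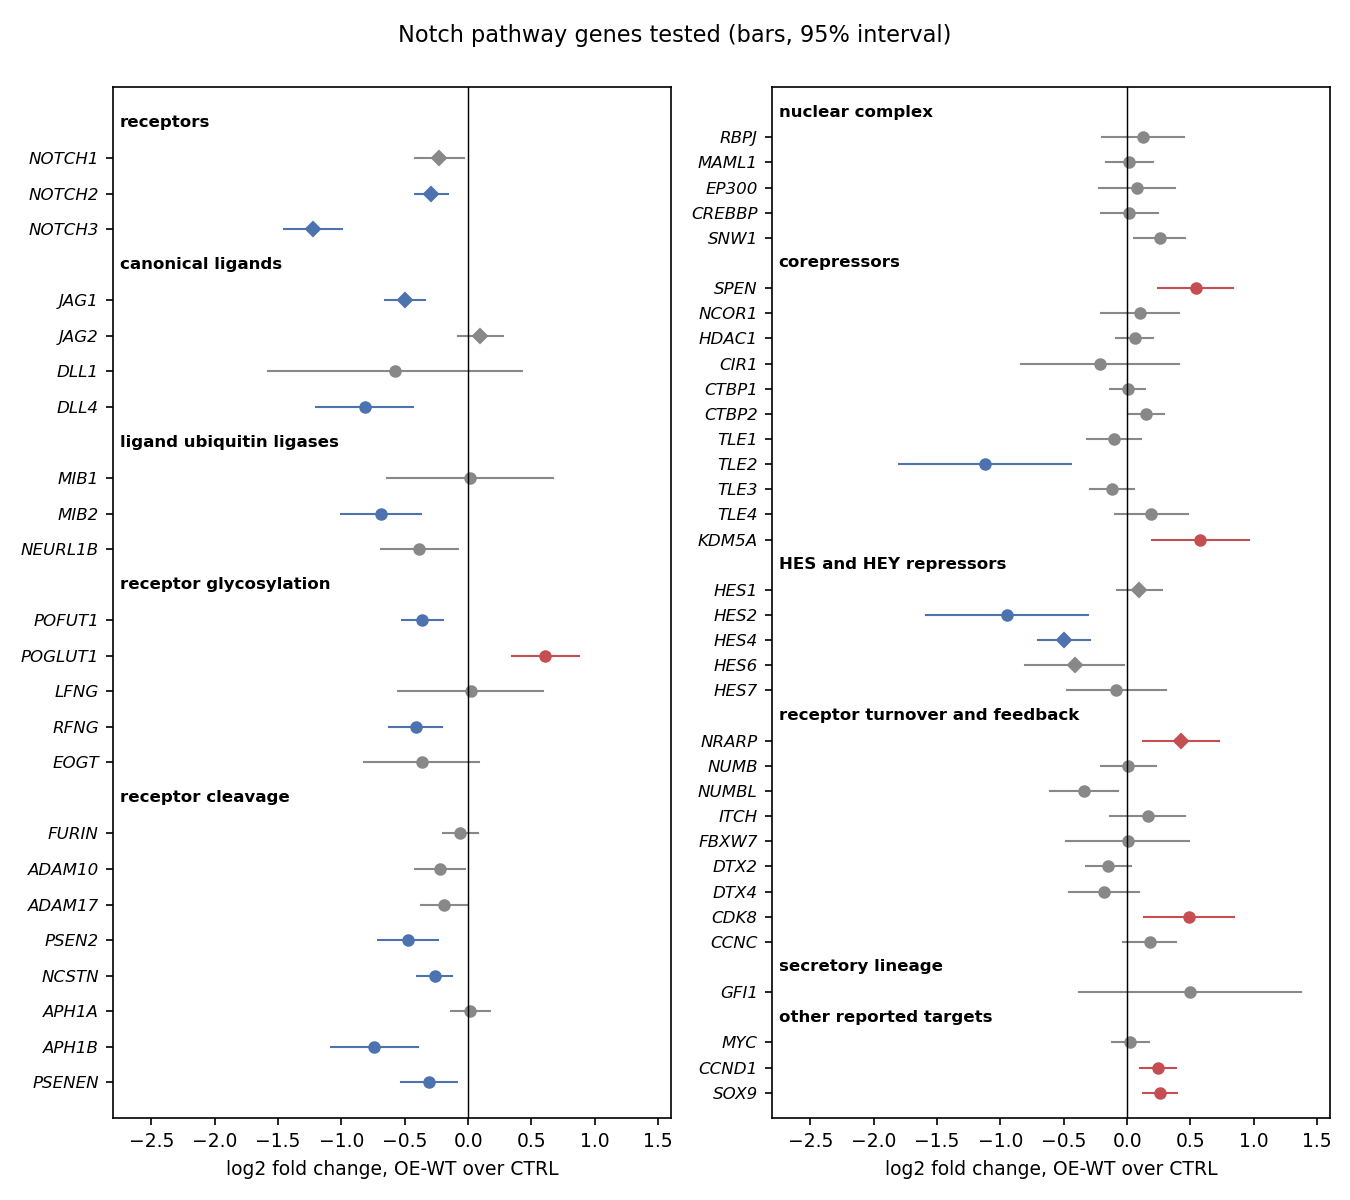
Log2 fold change, OE-WT over CTRL, of 57 of the 59 tested genes of the Notch pathway list, grouped by role, with 95% intervals that are not adjusted for the number of genes (diamonds, the Notch members; blue, lower; red, higher; grey, not called at an adjusted p of 0.05). In receptor cleavage APH1B lies lowest, at -0.74, and in the nuclear complex all 5 intervals belong to genes that were not called.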

How the data were processed

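RNA was poly(A)-selected and sequenced from stranded libraries per the labels, whereas the study's methods describe rRNA removal. The authors aligned reads to GRCh38 with HISAT2 and counted them per gene; the table deposited by the authors holds whole-number raw counts. The submitters' processing notes name HISAT2 2.2.1, featureCounts 2.0.0 and DESeq2 1.34.0, while the study's methods name HTSeq and edgeR. The annotation release and strand setting are not given in the sources used here. The study's methods give more replicates than the labels; the 2 labelled libraries per group were used, each with 1 column for its 2 lanes.

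The whole table was fitted with edgeR 4.0.16 in R 4.3.3, by quasi-likelihood after TMM scaling, keeping genes that passed edgeR's filter by group (minimum count 10), with group as the sole term and Benjamini-Hochberg adjustment over the 14133 genes tested. CPM and RPKM used TMM-scaled library sizes. P-values measure the spread between libraries of duplicate cultures, with each gene's spread estimated together with that of the other genes. An exact permutation test of 2 against 2 cannot go below 0.333. The study's methods do not say whether the cultures came from separate transductions, so variation between transductions may not be covered. Detection limits cover counting error only. The intervals of the log2 fold changes come from the same fit as the p-values and take in the spread between libraries as well. Replicate libraries differed by more than sampling noise (chi-square per degree of freedom 4.95 in OE-WT and 4.47 in CTRL).

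GENCODE 44 matched 57532 of 58302 identifiers and gave symbols, coordinates on GRCh38, transcript GC and lengths. Promoter windows came from RefSeq (GRCh38.p14), in which 9 of the 10 members were matched; HEY1 is not printed. Genes named are the 10 members, TRMT6 and TRMT61A and, from the pathway list, every other receptor, ligand and HES or HEY gene, every gene called at an adjusted p of 0.05 whose log2 fold change was 0.5 or more in size, and the gene with the highest level per length in each remaining role; the text marks the others as named later. Some genes that this rule takes in count in the totals but are not reported here. The members and lists were chosen with earlier results of these data known.

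Alternatives used RLE scaling, library size as the sole scaling, DESeq2 1.42.0, a filter of 1 count or one of 10 counts in each library, the replicate number as a block, a GC trend (lowess, span 0.3) removed per library, and each library left out in turn, where the lone library is assumed to vary like the others. Scripts were tested on simulated data. Plots were made with matplotlib 3.10.9. Ribosome profiling and tRNA sequencing were not analysed here.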

Additional observations from a re-analysis of the deposited data

How the results depend on the processing

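Of the 9 tested members, NOTCH2, NOTCH3 and JAG1 kept direction and call under all 11 alternatives. HES1 kept its direction and was called in none of them. In the alternatives that kept all libraries, 4 to 6 members were called, beside 5 as reported. The pathway list had 23 called genes, 13 by DESeq2 and 12 to 25 with a library left out. The median log2 fold change of the members, -0.29, was -0.38 with library size only, -0.17 with the GC trend removed, and -0.31 to -0.24 with a library left out. Libraries of the same replicate number did not deviate together (correlation -0.07) and share only a number. With the replicate block, 4 members were called and NRARP no longer (edgeR, adjusted p = 0.0553). PSENEN of the pathway list also lost its call (edgeR, adjusted p = 0.0568). The block changed no other call of a named gene of the pathway list, and 2658 genes were called in all instead of 2976. The cell type markers were not followed under the alternatives. The counts over all genes were 1377 by DESeq2 and 1923 to 2721 with a library left out. Directions turned for JAG2 (-0.045 to 0.25 with a library left out), APH1A (-0.073 with library size only, -0.0024 without the filter, -0.11 to 0.13 with a library left out), HDAC1 (-0.033 with library size only), and HES7 and DTX2 (0.13 and 0.017 with the GC trend removed), none of them called as reported; the causes were not tested. Depth limits HEY1, HEY2, HEYL, DLL3 and NOTCH4, which were too scarce to test. It also limits HES6, HES7, TLE2, HES2, DLL1 and GFI1, whose counts stayed at 101 or below.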
